A study of Mus musculus with 10 samples.

Results

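Brain pericytes in the medial prefrontal cortex of mice were taken as single-cell barcodes that met a marker rule, and 1539 barcodes met it. They were 3.15% of the 48816 barcodes kept and 2.37% of the 64937 deposited. A kept barcode had at least 500 detected genes and at most 15% of its unique molecular identifiers (UMIs, 1 per captured RNA molecule) from mitochondrial genes. A pericyte had at least 4 UMIs in all of Vtn, Kcnj8, Higd1b, Abcc9 and Atp13a5. It had at most 2 UMIs of the smooth muscle genes Acta2, Tagln and Myh11, and at most 1 of the endothelial genes Cldn5 and Flt1. It also had at most 1 UMI of Slc17a7, Gad1, Gad2, Gja1, Mog and Cx3cr1, which mark neurons and glia. The members were thus chosen by their measured UMIs of these genes, whose levels are described below with no test.

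The cells came from male C57BL/6N mice over 2 months old, whose place in a social hierarchy had been set by tube tests, in which 2 mice meet in a tube and 1 pushes the other out. Prefrontal tissue was taken 1 day after the last test, digested with papain and run on a 10x Genomics droplet platform. There were 5 libraries of dominant mice (rank 1) and 5 of subordinate mice (rank 4), numbered 1 to 5 within each rank. Each library pooled 2 or 3 mice and was the unit of every test, so p-values measure the spread between pools and not between mice. The labels name no transgene, allele or drug in either rank.

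Pericytes sit in the capillary basement membrane and wrap endothelial cells. In the brain they are known for keeping the blood-brain barrier, which needs PDGF-B from endothelial cells and its receptor PDGFRB on pericytes. With the smooth muscle cells of arterioles they make up the mural cells. Of the rule genes, Kcnj8 and Abcc9 encode the pore Kir6.1 and the subunit SUR2 of a potassium channel that closes with ATP, and Vtn encodes the matrix protein vitronectin. Higd1b belongs to a family of mitochondrial membrane proteins, and Atp13a5 encodes a P5-type transport ATPase.

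Of these 5 genes 2 are direct neighbours. In GENCODE M21 (GRCm38), Kcnj8 lies at chr6:142564837-142571614 and Abcc9 at chr6:142587862-142702315, both on the minus strand. The gap between them is 16247 bases and holds 0 protein-coding genes. Vtn lies at chr11:78499091-78502324 and Higd1b at chr11:102835849-102838040, both on the plus strand, and Atp13a5 at chr16:29231851-29378732 on the minus strand. Abcc9 overlaps 5330439B14Rik on the other strand. The promoters below are shown because the rule sums the UMIs of these genes. Higd1b is left out, since the promoter source held no entry for it. They run from 250 bases before to 50 after the start, 5′ to 3′ on the gene's strand, from RefSeq on GRCm38.p6. Capitals mark TGGGAA or its reverse complement TTCCCA, the core motif of RBPJ, the DNA-binding partner of Notch.
Vtn, chr11:78498870-78499169, plus strand: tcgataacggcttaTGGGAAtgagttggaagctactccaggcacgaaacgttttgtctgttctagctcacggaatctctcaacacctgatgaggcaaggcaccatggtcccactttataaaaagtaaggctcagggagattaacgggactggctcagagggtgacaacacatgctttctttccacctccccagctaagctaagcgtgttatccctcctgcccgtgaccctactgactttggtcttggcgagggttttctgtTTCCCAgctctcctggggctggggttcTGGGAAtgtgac
Kcnj8, chr6:142571565-142571864, minus strand: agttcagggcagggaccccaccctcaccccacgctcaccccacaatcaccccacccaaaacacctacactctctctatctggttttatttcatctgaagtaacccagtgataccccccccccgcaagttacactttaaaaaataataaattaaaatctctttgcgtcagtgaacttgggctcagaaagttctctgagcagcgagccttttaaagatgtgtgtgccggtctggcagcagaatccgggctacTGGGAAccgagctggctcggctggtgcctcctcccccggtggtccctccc
Abcc9, chr6:142702225-142702524, minus strand: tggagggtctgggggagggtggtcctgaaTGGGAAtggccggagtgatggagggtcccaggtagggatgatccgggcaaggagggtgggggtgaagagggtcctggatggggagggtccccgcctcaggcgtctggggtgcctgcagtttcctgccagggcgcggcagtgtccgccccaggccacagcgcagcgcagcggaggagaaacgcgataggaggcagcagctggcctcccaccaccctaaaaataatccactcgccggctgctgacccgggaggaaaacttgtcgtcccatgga
Atp13a5, chr16:29378683-29378982, minus strand: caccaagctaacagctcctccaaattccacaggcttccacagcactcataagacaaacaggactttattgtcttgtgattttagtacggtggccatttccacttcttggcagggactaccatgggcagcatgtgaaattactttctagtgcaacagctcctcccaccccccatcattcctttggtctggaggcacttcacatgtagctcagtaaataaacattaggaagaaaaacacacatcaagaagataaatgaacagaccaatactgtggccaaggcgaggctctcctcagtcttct

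The RBPJ core matched 3 times in the Vtn promoter, once each in Kcnj8 and Abcc9, and 0 times in Atp13a5. On either strand it was in 25.6% of all 32851 promoters of this length in the table. A forkhead core (TGTTTAC, in 3.65% of promoters), a T-box core (AGGTGTGA, 1.28%) and the E-box CACGTG (7.15%), which contains the hypoxia core ACGTG (19.6%), had 0 matches in all 4 windows. A GATA core (AGATAA, 11.2%) matched 1 time, in Atp13a5. The matches are letters in a window and not measured binding.

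The libraries held between 62 and 366 pericytes each, with 61376 to 469581 UMIs in all of them per library and a median of 864.5 to 2301.5 UMIs per pericyte. The median mitochondrial share of pericytes ran from 2.47% to 10.2%. The highest median depth and the highest mitochondrial share were both those of rank 4 replicate 1. Of 45 pairs of libraries, the pair sharing most shared 104 barcodes (1.70% of the smaller library), and 0 pairs shared a pericyte barcode. Smooth muscle cells reached 20 per library in 5 libraries only: replicates 2 and 3 of rank 1 and replicates 2, 3 and 5 of rank 4.

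The label was checked against markers the rule did not use. To compare cells of unequal depth, each cell was thinned to 800 UMIs, which left 1281 pericytes and put 258 aside. Rgs5, a regulator of G-protein signalling, then had a UMI in 83.9% of pericytes, on average over libraries, against 3.52% of endothelial cells and 1.58% of microglia, which should lack it. Notch3, the Notch receptor of mural cells, was detected in 21.2%, 0.22% and 0.31%. Smooth muscle cells shared both genes, at 51% and 20%. Slc6a20a, a proline transporter, was detected in 41.5% of pericytes and 0.72% of smooth muscle cells. Over all 1539 pericytes without thinning, Vtn had a UMI in every one, Higd1b in 1164 (75.6%), Atp13a5 in 969 (63.0%), Kcnj8 in 843 (54.8%) and Abcc9 in 579 (37.6%). All 5 genes were detected together in 229 pericytes. After thinning, Kcnj8 was in 47.4% of pericytes and 0.44% of microglia, and Abcc9 in 28% and 0.17%.

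Vtn carried 73.9% of the UMIs of the 5 genes, and 111 pericytes (7.21%) had UMIs of Vtn alone. Some of these resembled fibroblasts: 54 pericytes (3.51%) had 4 or more UMIs of Dcn, Lum, Col1a1, Col1a2, Pdgfra and Igf2, and 38 of them were positive for Vtn alone. They averaged 19.1 UMIs per cell of Apod, a lipocalin made by fibroblasts, against 0.173 in the other 1485. They averaged 3.78 against 0.172 UMIs of the GABA transporter gene Slc6a13, 1.07 against 4.61 of Rgs5 and 0.259 against 1.22 of Kcnj8. Each library held 0 to 14 of them, the most in rank 4 replicate 1. Replicates 1 to 5 held 3, 4, 1, 0 and 6 in rank 1 and 14, 1, 6, 7 and 12 in rank 4. Counts of called genes, the shares between ranks and Slc6a13 are given with and without them. At the edge of the rule, 45 pericytes had exactly 4 UMIs of the 5 genes, and 41 barcodes met all other limits with 3. The median sum per library was 13 to 33, and 1232 pericytes (80.1%) had 10 or more.

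**Figure D1:**
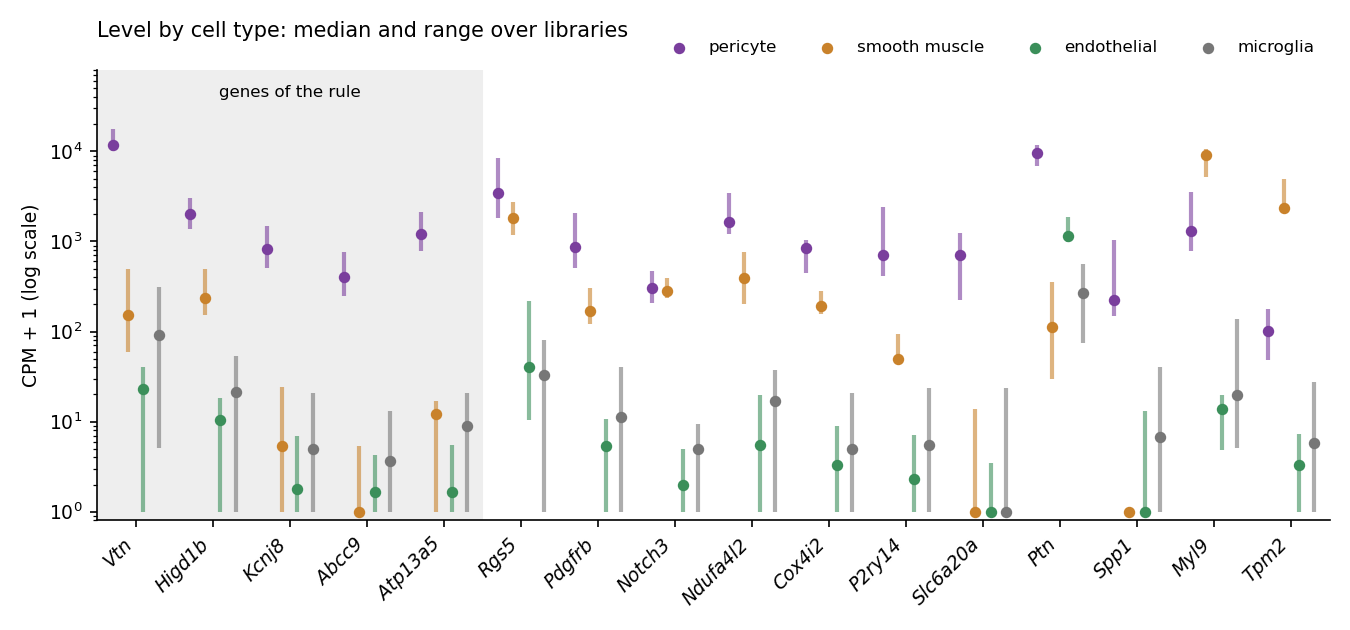
Levels of 5 rule genes (shaded) and 11 other genes in 4 cell types, as CPM + 1 on a log scale, where CPM are counts per 1000000 UMIs. Points are medians and bars the range over libraries (5 for smooth muscle cells, 10 for the others). The rule genes are a description, since they chose the cells, and Vtn in pericytes lies between 10040.5 and 17567.4 CPM.

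Levels of the rule genes are counts per 1000000 UMIs of the summed pericytes of a library (CPM). For Vtn, the libraries of rank 1 gave 16212.9, 12962.2, 17567.4, 15806.2 and 11303.1 CPM in the order of their numbers, and those of rank 4 gave 11287.5, 11950.4, 11502.4, 10040.5 and 11513.5. Rank 1 replicate 5 lay within the range of rank 4, and the other 4 libraries of rank 1 lay above it. In endothelial cells Vtn was at most 39.1 CPM and in microglia at most 309.2. Kcnj8 was at 814.3, 1482.9, 1497.8, 689.1 and 731.5 CPM in rank 1 and at 799.1, 1141.2, 1278.6, 504.2 and 820.3 in rank 4. Abcc9, its channel partner, was at 291.1, 261.2, 249.6, 765.7 and 513.8 CPM in rank 1 and at 473.1, 309.8, 328.4, 491.6 and 532.3 in rank 4. The subunits did not run in parallel: in both ranks Kcnj8 was highest and Abcc9 lowest in replicates 2 and 3. Higd1b ranged from 1384.6 to 3026.7 CPM (median 2032.1) and Atp13a5 from 777.8 to 2119.4 (median 1206.0).

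Several pericyte genes differed more by replicate number than by rank. Rgs5 was at 3510.1, 5778.0, 6895.9, 3314.4 and 2107.4 CPM in rank 1 and at 2693.5, 8526.7, 5746.2, 2105.2 and 1832.6 in rank 4. The highest values of both ranks were those of replicates 2 and 3. P2ry14, a receptor for UDP-glucose, was high in the same 4 libraries, with 1560.2 to 2396.6 CPM there and 409.7 to 807.4 in the other 6. Myl9, the myosin regulatory light chain, had 2612.4 to 3505.2 CPM there and 792.4 to 1396.4 elsewhere. Junb, an immediate early transcription factor gene, had 3149.2 to 4742.9 CPM there and 511.4 to 1181.4 elsewhere. Pdgfrb went the other way, at 502.5 to 668.4 CPM there and 858.8 to 2078.3 elsewhere. These libraries were picked out after their values were seen, so the difference carries no test. The 10 neuronal markers summed to 1223 to 2816 CPM in the pericytes of those 4 libraries and to 2166 to 6853 in the others, with overlap. The oligodendrocyte list (163 to 900 CPM there, 328 to 2160 elsewhere) and the erythroid list (358 to 1467 there, 876 to 3718 elsewhere) overlapped too. The smooth muscle list (676 to 1125 there, 379 to 529 elsewhere) and the astrocyte list (3538 to 4933 there, 5806 to 7599 elsewhere) did not overlap. Their part in these differences was not tested.

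**Figure D2:**
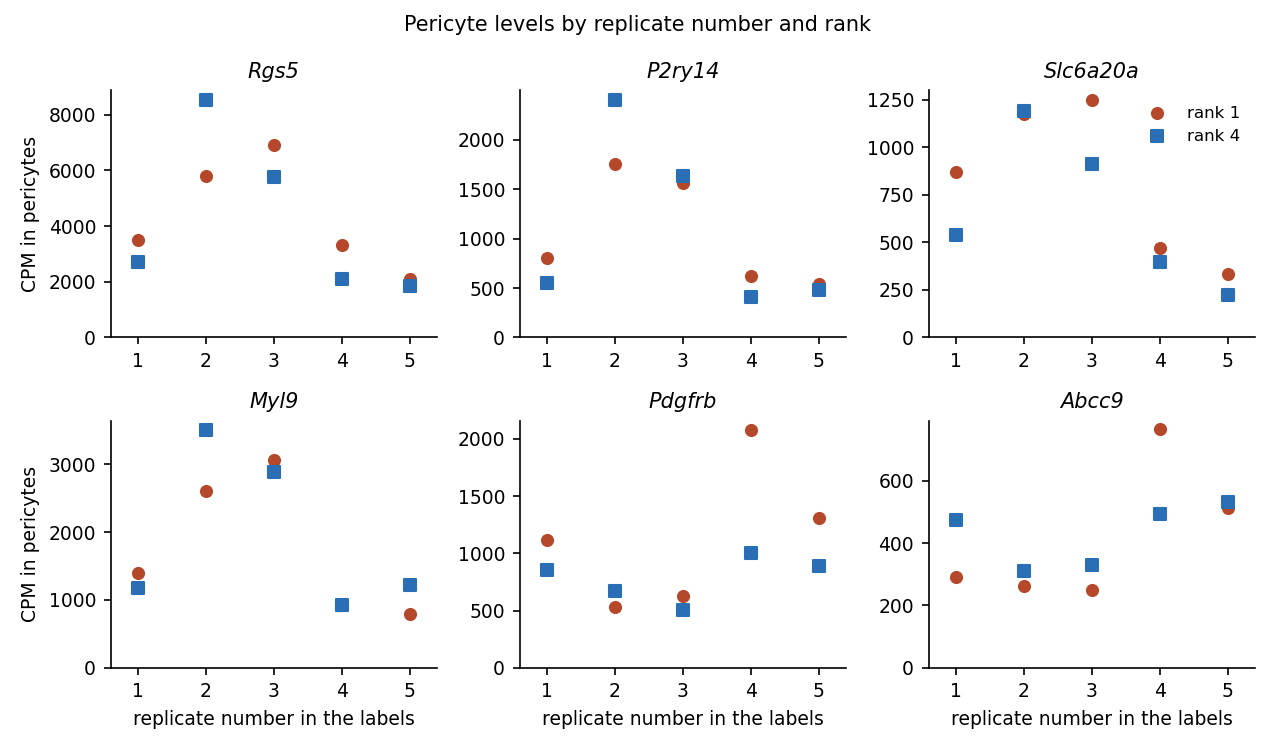
CPM in pericytes by replicate number, with rank 1 and rank 4 as separate points for each gene. Rgs5, P2ry14 and Myl9 are highest and Pdgfrb lowest in replicates 2 and 3 of both ranks.

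The comparison of pericytes with endothelial cells asked which genes set apart the 2 partners of the capillary wall. It used 3239 endothelial cells (at least 4 UMIs of Cldn5 and Flt1, at most 1 of the pericyte genes) from all 10 libraries, with the library as block. Of 5066 genes tested, 1269 (25.0%) were higher and 1324 (26.1%) lower in pericytes, in all 51.2%, by edgeR's quasi-likelihood test at an adjusted p under 0.05. An unadjusted p under 0.05 was reached by 56.2%. Genes tested only through the cell type where they are high had to differ, leading genes and members of the lists below alike. Their calls and counts are a description. Without the fibroblast-type barcodes 2623 genes were called, 1358 higher and 1265 lower, and 2486 of the 2593 were among them.

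Slc6a20a was among the 10 genes of largest fitted fold. It was at 221.1 to 1248.1 CPM in pericytes (median 706.2) and at 0 to 2.5 CPM in endothelial cells, without overlap. It had 1253 UMIs in pericytes against 3 in endothelial cells, a ratio of 1109 with a 95% counting interval of 379 to 5386. The fitted log2 fold was 9.40 (SE 0.22), and its call is a description, since it was tested only through its pericyte counts. Slc6a20a overlaps Ccr9 on the other strand. Pla1a, a phospholipase of phosphatidylserine, had 332 UMIs in pericytes and 0 in endothelial cells, at least 294-fold higher when 3 UMIs over all libraries are taken as the floor.

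The related enzyme genes Ggt1 (chr10:75561604-75586200), whose product cleaves glutathione, and Ggt5 (chr10:75589340-75617200) were both among the 10. Ggt1 had 462 UMIs against 3, a ratio of 409 with an interval of 139 to 1990, and Ggt5 had 561 against 5. P2ry14 had 1707 UMIs against 12 (log2 fold 8.38, SE 0.20). Sod3, the extracellular superoxide dismutase, had 1010 against 10 (7.79, SE 0.20), and the matrix protein gene Aspn 855 against 8 (7.88, SE 0.26). Ndufa4l2, a relative of a respiratory chain subunit, had 3415 against 43 (7.70, SE 0.23). Carmn, a long noncoding RNA of mural cells, had 370 against 2, a ratio of 491 (interval 135 to 4072). All of these were higher in pericytes in 10 of 10 libraries. P2ry14, Aspn and Ndufa4l2 overlap a gene on the other strand (Med12l, Cenpp and Shmt2), and the strand used in counting is not given in the sources used here.

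The 10 genes of largest fitted fold in the other direction had few or 0 pericyte UMIs, so their order is not given. Gata2, a transcription factor of blood and endothelial cells, had 0 UMIs in pericytes against 878, at least 110-fold lower. The endothelial surface gene Ly6c1 had 35 against 12296 (log2 fold −7.11, SE 0.18), and Slco1a4, an organic anion transporter of the barrier, 29 against 8358 (−6.82, SE 0.21). The amino acid transporter gene Slc38a5 had 2 against 1228, a ratio of 231 (interval 63.9 to 1911), and the regulator Mecom 2 against 1043, a ratio of 196 (54.2 to 1624). Cd93, Icam2 and Hmcn1 had 2, 3 and 6 pericyte UMIs against 1316, 1046 and 1751. Their fitted log2 folds of −7.52, −6.78 and −6.75 became −9.42, −7.71 and −7.77 without rank 4 replicate 5. Clic5 (1 against 779) went from −7.44 to −8.73 without rank 1 replicate 1, and Paqr5 (2 against 830) from −6.94 to −7.55 and −7.54 without rank 4 replicates 3 and 4. With so few UMIs, the counting intervals are wide, and free RNA in the droplets cannot be told apart from expression.

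The comparison with smooth muscle cells asked what sets pericytes apart from the other mural cell. It used the 5 libraries with at least 20 smooth muscle cells, 311 cells with at least 4 UMIs of Acta2, Tagln and Myh11 and at most 3 of the pericyte genes. Over all libraries, 129 barcodes past the pericyte minimum had 3 or more smooth muscle UMIs and entered neither class. The contrast thus leaves out barcodes that carried both sets of genes. Whether those were intermediate cells or mixed barcodes was not tested. Of 1851 genes tested, 464 (25.1%) were higher and 443 (23.9%) lower in pericytes, in all 49.0%, and 54.9% had an unadjusted p under 0.05. Here too, genes tested only through the cell type where they are high had to differ, and their calls and counts are a description. Without the fibroblast-type barcodes 908 were called, and 879 of the 907 were among them. Leaving out 1 library at a time gave 607 to 1057 genes. The smooth muscle cells of rank 4 replicate 5 stood apart from those of the other 4 libraries: Cnn1, a defining smooth muscle gene, was at 93.4 CPM against 600.8 to 784.4 there. Without it 1057 genes were called.

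Spp1, the secreted phosphoprotein osteopontin, was among the 10 genes of largest fitted fold. In rank 1 replicates 2 and 3 and rank 4 replicates 2, 3 and 5 it was at 468.7, 1045.3, 684.7, 691.5 and 157.1 CPM in pericytes and at 0 in the smooth muscle cells of all 5. Its 363 UMIs against 0 put it at least 84.3-fold higher. Part of them came from the fibroblast-type barcodes. Over all libraries, Spp1 averaged 2.44 UMIs per cell in those 54 and 0.313 in the other 1485. G0s2, an inhibitor of fat breakdown (217 UMIs against 0, at least 50.4-fold), and Nts, the neuropeptide neurotensin (165 against 0, at least 38.3-fold), were likewise at 0 in smooth muscle cells. Slc6a13 (194 against 0, at least 45.1-fold) was one of the genes of the fibroblast-type barcodes, and without them it was not tested. Ggt1 (165 against 0) and Pla1a (128 against 0) were at least 38.3-fold and 29.7-fold higher, and were among the 10 in this comparison as well as in the endothelial one. G0s2 overlaps Lamb3.

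Ptn, the growth factor pleiotrophin, was the most abundant of these genes. It was at 9450.8, 11810.4, 10597.2, 10562.1 and 9791.4 CPM in pericytes and at 99.4, 29.1, 110.5, 201.0 and 350.4 in smooth muscle cells (log2 fold 6.18, SE 0.28, adjusted p = 2.2e-11, edgeR quasi-likelihood test with Benjamini-Hochberg adjustment). Endothelial cells lay between, at 998.4 to 1850.2 CPM. Slc22a8, an organic anion transporter, had 314 UMIs against 1, a ratio of 219 (interval 39.0 to 8672). Its fitted log2 fold of 7.62 became 6.98 when rank 1 replicate 2 was left out and 9.32 when rank 4 replicate 2 was. Endothelial cells held it at 244.3 to 570.6 CPM and pericytes at 162.0 to 858.1, and it was not called between them. Slc6a20a had 565 against 4 (7.0, and 7.90 without rank 1 replicate 2), and the surface enzyme gene Art3 457 against 6 (5.94, SE 0.32).

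**Figure D3:**
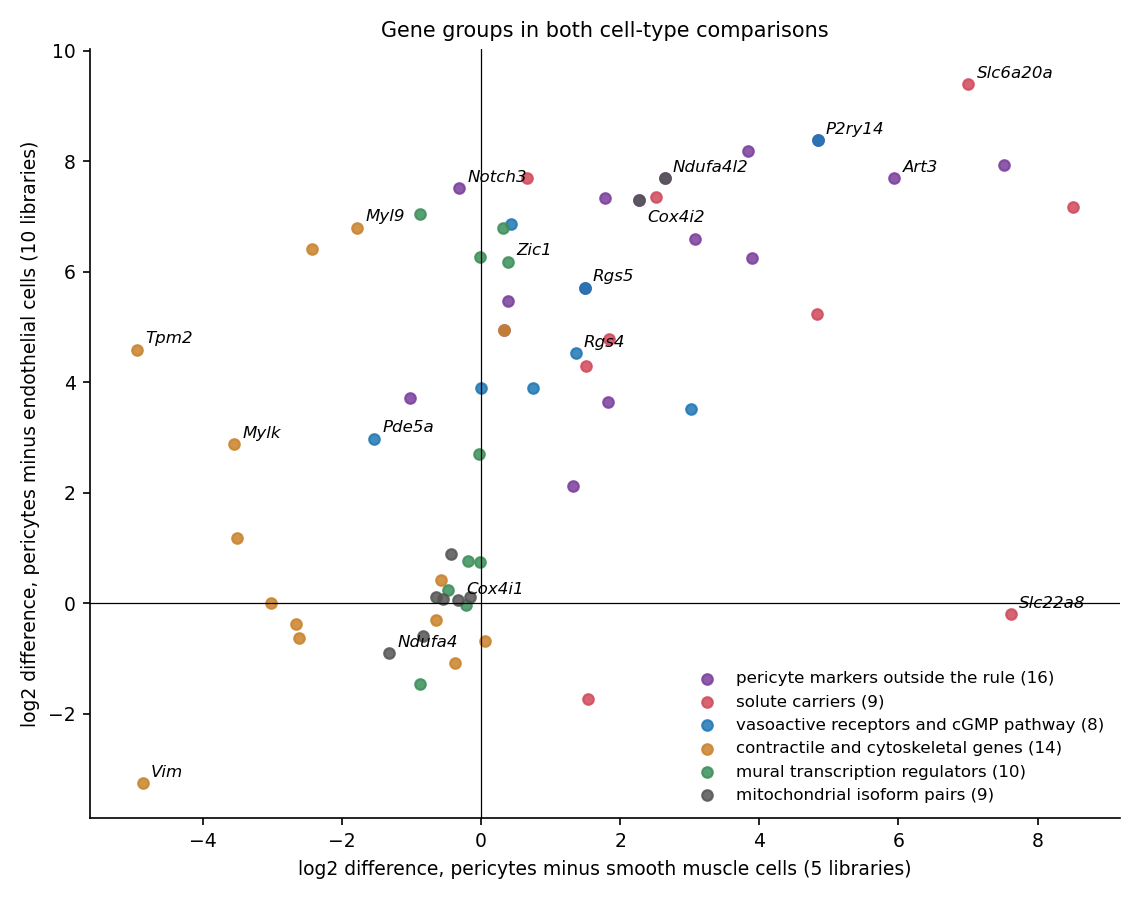
Fitted log2 difference of pericytes over smooth muscle cells (x axis, 5 libraries) and over endothelial cells (y axis, 10 libraries) for the members of 6 gene lists tested in both, 1 point per gene, coloured by list. Both axes use the same pericyte sums, so the shape of the cloud is no result. Slc6a20a (7.0 and 9.40) lies at upper right and Myl9 (−1.78 and 6.80) at upper left.

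The 10 genes of largest fitted fold in smooth muscle cells over pericytes included Pln and Cnn1. Pln, phospholamban, which brakes the calcium pump of the reticulum, had 0 UMIs in pericytes against 453, at least 217-fold lower. Cnn1, calponin, had 0 against 340 (at least 163-fold lower), and Nexn, an actin-binding protein gene, 0 against 141 (at least 67.4-fold lower). Palld, an actin-bundling protein gene, had 1 against 407, a ratio of 584 (interval 104 to 23119), and a log2 fold of −8.09 that was −9.06 without rank 1 replicate 2. Pdlim3 (1 against 180) and Aoc3 (1 against 70) went from −6.93 to −8.32 and from −6.08 to −6.82 without rank 4 replicate 5. Tinagl1 (5 against 468) went from −6.47 to −7.11 without rank 4 replicate 2. Sncg (8 against 453), Crispld2 (16 against 955) and Stom (3 against 101, a ratio of 48.3 with an interval of 16.1 to 238) completed the 10.

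Known pericyte markers outside the rule were higher in pericytes than in endothelial cells, and most of them also than in smooth muscle cells. Of 20 listed, 18 were tested against endothelial cells and all 18 were higher (median log2 fold 7.30, against 0.04 over all genes tested). Against smooth muscle cells 17 were tested, of which 13 were higher, 2 lower and 2 not called (median 1.82, against 0.06 over all genes). The list held genes chosen as pericyte markers, so its direction is not independent of the choice of cells. Pdgfrb was at 502.5 to 2078.3 CPM in pericytes and at most 9.7 in endothelial cells (log2 fold 7.33, SE 0.19), and 1.78 (SE 0.17) above smooth muscle cells. Rgs5 was 5.72 (SE 0.32) above endothelial and 1.49 (SE 0.27) above smooth muscle cells, the latter in 4 of 5 libraries. Mcam, an adhesion gene often used to sort mural cells, was lower than in smooth muscle cells (−2.18, SE 0.22), as was the gap junction gene Gja4 (−1.03, SE 0.16). In smooth muscle cells, Mcam was at 386.8 to 537.5 CPM in 4 libraries and 140.2 in rank 4 replicate 5. Anpep, the aminopeptidase CD13, passed the filter in neither comparison and was at 31.5 to 296.4 CPM in pericytes.

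Genes of the PDGF and angiopoietin pathways were split between the 2 cell types of the capillary. Of 16 listed, 9 were tested against endothelial cells, 3 higher in pericytes and 6 lower. Over all genes tested there, 25.0% were higher and 26.1% lower. The ligand gene Pdgfb was at 0 to 26.2 CPM in pericytes and 133.6 to 363.1 in endothelial cells (log2 fold −3.87, SE 0.24). The endothelial receptors Tek (−5.26, SE 0.22), Tie1 (−5.61, SE 0.27) and the VEGF receptor Kdr (−6.09, SE 0.20) were lower. Receptors for sphingosine 1-phosphate were divided, with S1pr3 higher (6.82, SE 0.24) and S1pr1 lower (−3.69, SE 0.18). Against smooth muscle cells 3 members were tested: Pdgfrb (higher), the ligand gene Pdgfa (lower) and S1pr3 (not called).

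Notch genes gave a similar division by receptor. Of 14 listed, 12 were tested against endothelial cells, 4 higher, 5 lower and 3 not called (all genes: 25.0% higher, 26.1% lower). Notch3 was at 204.0 to 470.4 CPM in pericytes against at most 4.0 (log2 fold 7.52, SE 0.25), and its targets Heyl (6.79, SE 0.27) and Hey2 (4.95, SE 0.33) were also higher. The endothelial receptor Notch4 (−2.08, SE 0.29) and the ligands Dll4 (−5.00, SE 0.31) and Jag2 (−3.90, SE 0.27) were lower. Against smooth muscle cells 5 were tested, 1 higher and 4 not called (all genes: 25.1% higher, 23.9% lower). Notch3 was at 204.0 to 288.0 CPM in pericytes and 233.2 to 397.1 in smooth muscle cells (log2 fold −0.32, SE 0.18, adjusted p = 0.148, edgeR quasi-likelihood test with Benjamini-Hochberg adjustment; 0.0748 to 0.562 over the alternatives). Heyl gave 0.31 (SE 0.24, adjusted p = 0.296 in the same test, 0.127 to 0.893 over the alternatives).

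In the TGF-beta and BMP list, 10 of 11 members tested were lower in pericytes than in endothelial cells, against 26.1% of all genes tested. The ligand gene Tgfb1 was called higher, but not under every alternative. The lower ones included the BMP target Id1 (−4.63, SE 0.17), the receptor Acvrl1 (−4.63, SE 0.18) and its co-receptor Eng, endoglin (−1.78, SE 0.09). Against smooth muscle cells the 3 tested were Eng, which was higher in pericytes (3.99, SE 0.43), and the lower genes Tgfb3 and Id3 (−1.44, SE 0.20). Eng thus lay between the other cells, at 139.3 to 215.1 CPM in pericytes of the 5 libraries and at most 22.1 in smooth muscle cells. Eng overlaps Fpgs.

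Receptor and cGMP pathway genes of vessel tone were above endothelial levels. Of 22 listed genes found in the files, 9 were tested against endothelial cells and all 9 were higher (median 4.52), among them the endothelin receptor Ednra (6.87, SE 0.31) and the adenosine receptor Adora2a (5.70, SE 0.27). The nitric oxide receptor subunits Gucy1a1 (3.89, SE 0.22) and Gucy1b1 (3.90, SE 0.20) were higher, as was Pde5a, whose product breaks down cGMP (2.98, SE 0.17). Against smooth muscle cells 5 were higher, 2 lower and 2 not called (all genes: 25.1% higher, 23.9% lower). Tbxa2r, the thromboxane receptor, was higher (3.02, SE 0.48), and so was Rgs4 (1.36, SE 0.18), while the phosphodiesterases Pde5a (−1.54, SE 0.30) and Pde3a (−3.93, SE 0.36) were lower. Among 21 ion channel and pump genes, 7 were tested against endothelial cells, 6 higher and 1 not called (all genes: 25.0% higher). Itpr1 (0.93, SE 0.13) and Itpr2 (1.25, SE 0.15), calcium release channel genes of the reticulum, were higher. The 10 astrocyte markers summed to 3538 to 7599 CPM in pericytes and 441 to 2413 in endothelial cells, and the part of astrocyte RNA was not tested. Aqp4, which defines astrocytes, had a mean of 12 CPM in pericytes.

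Contractile genes were mostly lower in pericytes than in smooth muscle cells. Of 15 tested against endothelial cells 7 were higher, 7 lower and 1 not called. Of 17 tested against smooth muscle cells 1 was higher, 13 lower and 3 not called (median −2.66). The shares over all genes were 25.0% higher and 26.1% lower against endothelial cells, and 25.1% and 23.9% against smooth muscle cells. Myl9 was at 2612.4, 3057.9, 3505.2, 2885.5 and 1215.9 CPM in the pericytes of the 5 libraries and at 8648.5, 10734.6, 10134.7, 9165.8 and 5232.3 CPM in their smooth muscle cells. Every smooth muscle value was above every pericyte value (log2 fold −1.78, SE 0.12), and pericytes were in turn 6.80 (SE 0.18) above endothelial cells. The same order held for the tropomyosin Tpm2 (4.59, SE 0.28, and −4.95, SE 0.20), desmin (Des, 6.41, SE 0.35, and −2.43, SE 0.18) and myosin light chain kinase (Mylk, 2.88, SE 0.19, and −3.56, SE 0.21). Vimentin (Vim) was lower in pericytes than in both, by −3.25 (SE 0.15) and −4.87 (SE 0.23). The rule capped Acta2, Tagln and Myh11 in pericytes, so genes of the same filaments are not independent of it.

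Of 9 solute carriers tested against smooth muscle cells 8 were higher in pericytes, 1 not called and 0 lower (median 2.51, against 0.06 over all genes). Against endothelial cells 7 of 12 were higher, 4 lower and 1 not called. Over all genes, 25.1% were higher than in smooth muscle cells, and 25.0% higher and 26.1% lower than in endothelial cells. Slc19a1, the reduced folate carrier, was 7.35 (SE 0.22) above endothelial and 2.51 (SE 0.25) above smooth muscle cells. The metal transporter Slc30a10 was higher than in both (5.24, SE 0.22, and 4.83, SE 0.49), and Slc38a11 was 7.69 (SE 0.25) above endothelial cells. The fold of Slc6a13 over endothelial cells was 7.18 (SE 0.28), 8.09 without rank 1 replicate 1 and 6.49 without the fibroblast-type barcodes. The barrier transporters Slc2a1 for glucose (−5.38, SE 0.14), Slc7a1 for cationic amino acids (−5.14, SE 0.19) and Slc16a1 for lactate (−5.72, SE 0.21) were lower in pericytes than in endothelial cells. Slc19a1 overlaps Col18a1.

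Basement membrane and adhesion genes were mixed. Of 16 tested against endothelial cells 9 were higher, 5 lower and 2 not called (all genes: 25.0% higher, 26.1% lower). Of 11 against smooth muscle cells 6 were higher, 4 lower and 1 not called (all genes: 25.1% higher, 23.9% lower). Laminin genes Lama2 (5.72, SE 0.28) and Lamc1 (2.65, SE 0.17), nidogen Nid1 (2.72, SE 0.19) and biglycan Bgn (6.01, SE 0.25) were above endothelial levels. Fibronectin, Fn1, was at 0 to 25.2 CPM in pericytes and 475.4 to 995.5 in endothelial cells (−6.19, SE 0.22). Sparcl1, an abundant matrix protein gene, was 0.55 (SE 0.09) above endothelial and 1.09 below smooth muscle cells (−1.09, SE 0.12).

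Of 10 mural transcription regulators tested against smooth muscle cells, 0 were higher in pericytes, 2 lower and 8 not called. Over all genes, 25.1% were higher and 23.9% lower there, and 25.0% and 26.1% against endothelial cells. Against endothelial cells 8 of 14 were higher, 2 lower and 4 not called, among them the T-box genes Tbx18 (7.05, SE 0.33) and Tbx2 (7.14, SE 0.32), the forkhead gene Foxs1 (6.27, SE 0.28) and Zic1 (6.19, SE 0.20). Epas1, which encodes HIF-2alpha, was lower than in endothelial (−1.46, SE 0.12) and smooth muscle cells (−0.88, SE 0.16). The wingless pathway factor Lef1 was lower than in endothelial cells (−3.23, SE 0.16). Zic1 overlaps Zic4.

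Of the respiratory chain genes with tissue-specific isoforms, Ndufa4l2 and Cox4i2 stood out. Cox4i2, an isoform of a cytochrome oxidase subunit, was at 441.2 to 1037.3 CPM in pericytes and at most 8.0 in endothelial cells (7.31, SE 0.19). Both were also above smooth muscle cells, Ndufa4l2 by 2.64 (SE 0.27) and Cox4i2 by 2.27 (SE 0.20). The common counterpart Ndufa4 was lower than in both other cell types (−0.90, SE 0.13, and −1.32, SE 0.22). In the list of 13 such genes, 3 of 9 tested were higher than in endothelial cells, 2 lower and 4 not called. Against smooth muscle cells 2 of 9 were higher, 5 lower and 2 not called. The shares over all genes were 25.0% higher and 26.1% lower, and 25.1% and 23.9%, in the same order.

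Immediate early and glucocorticoid-responsive genes were lower in pericytes than in endothelial cells more often than higher, while heat shock chaperones were split. Over all genes tested, 25.0% were higher and 26.1% lower than in endothelial cells, and 25.1% and 23.9% than in smooth muscle cells. Of 19 immediate early genes tested, 17 were lower, 1 higher and 1 not called (median −1.15), with Klf2, a flow-responsive factor, at 37.8 to 343.3 CPM against 2326.2 to 6587.0 (−4.84, SE 0.15). Klf4 (−3.73, SE 0.20) and Fos (−0.62, SE 0.12) were lower too. Against smooth muscle cells 3 of 18 were higher, 9 lower and 6 not called, with Jun higher (1.89, SE 0.26). Of 12 glucocorticoid-responsive genes 8 were lower than in endothelial cells and 4 not called, and of 8 tested against smooth muscle cells 2 were higher, 5 lower and 1 not called. Cdkn1a, the cell cycle inhibitor p21, was lower than in both (−4.76, SE 0.17, and −4.37, SE 0.31). The second value was −5.04 without rank 4 replicate 5. Heat shock chaperones were 4 higher, 5 lower and 3 not called of 12 against endothelial cells, and 4 higher, 1 lower and 7 not called against smooth muscle cells. Tissue was digested at 37 °C for 60 min, a step that all libraries shared.

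Cytokine, adhesion and interferon genes were lower than in endothelial cells in 10 of 13 tested and higher in 3 (all genes: 26.1% lower, 25.0% higher). Against smooth muscle cells 6 of 9 were higher, 1 lower and 2 not called (all genes: 25.1% higher, 23.9% lower). The interferon-inducible Ifitm1 was higher than in both (6.25, SE 0.19, and 3.90, SE 0.25), and the chemokine Cxcl1 was 2.49 (SE 0.24) above endothelial cells. Cxcl12, a chemokine for CXCR4-bearing cells, was lower than in endothelial cells (−2.29, SE 0.23) and higher than in smooth muscle cells (3.87, SE 0.38, and 4.65 without rank 1 replicate 2).

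Transcripts of other cells were present in the summed pericytes. The astrocyte list had the highest sums, given above, and the 10 neuronal markers summed to 1223 to 6853 CPM against 757 to 4920 in endothelial cells. The 10 endothelial markers outside the rule summed to 525 to 1129 CPM against 19475 to 38547 in endothelial cells, and the 10 smooth muscle markers to 379 to 1125 CPM against 17192 to 22994 in smooth muscle cells, with Cnn1 and Actg2 at 0. The 10 fibroblast markers summed to 558 to 2401 CPM against 64 to 187 in endothelial cells. Erythroid genes summed to 358 to 3718 CPM, and to 5601 to 41666 CPM in endothelial cells. Microglial and macrophage markers summed to 228 to 1846 CPM and oligodendrocyte markers to 163 to 2160 CPM.

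The spread among the pericytes of a library was measured as the Fano factor, the variance over the mean of UMIs per cell at 800 UMIs, averaged over libraries for 267 genes with at least 0.25 UMIs per cell. Ptgds, a prostaglandin D synthase gene, led with 54.0 over 8 libraries, followed by Malat1 (9.82), Hspa1a (6.21), Apoe (6.11) and Actb (5.17), while the median was 1.07. The libraries differed widely: Ptgds ran from 27.6 to 92.9, Malat1 from 5.91 to 20.9, Hspa1a from 1.78 to 13.5, Apoe from 0.946 to 12.8 and Actb from 1.05 to 12.7. Vtn had 3.45, Ptn 2.30 and Rgs5 1.95. These values include the fibroblast-type barcodes, whose part in the spread was not tested. Vtn was a rule gene, so its spread is limited by the rule.

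Whether pericytes differed with social rank was asked first of their number. They made up 2.66%, 6.15%, 4.37%, 3.07% and 2.50% of kept barcodes in rank 1 replicates 1 to 5 and 3.99%, 3.91%, 4.90%, 2.34% and 2.66% in rank 4. The ranks overlapped over most of their range, and the highest and the second lowest value were both of rank 1. The mean was 3.75% ± 1.53 in rank 1 and 3.56% ± 1.05 in rank 4 (SD, n = 5 per rank). The difference of 0.190 percentage points was smaller than either spread (two-sided exact permutation test over 252 divisions of the libraries, p = 0.794, adjusted p = 0.905 over 2 tests, smallest possible p = 0.00794) and was positive in 2 of 5 pairs of equal number. Without the fibroblast-type barcodes it was 0.248 (exact permutation p = 0.762). Its sign turned when 1 of 3 libraries was left out: it became −0.410 with rank 1 replicate 2 omitted, −0.114 with rank 4 replicate 4 omitted and −0.0344 with rank 4 replicate 5 omitted.

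**Figure D4:**
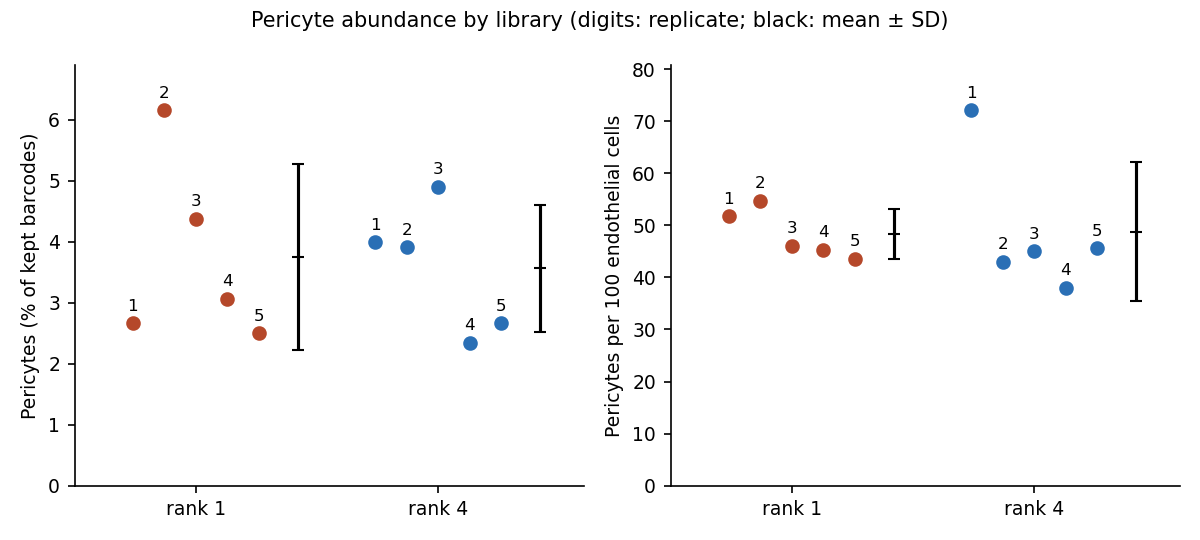
Pericytes as a percent of kept barcodes (left) and per 100 endothelial cells (right) by rank, 1 numbered point per library, with the mean and SD of each rank in black. The ranks overlap in both panels, and rank 4 replicate 1 lies alone at 72.1 pericytes per 100 endothelial cells.

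Per 100 endothelial cells there were 51.8, 54.8, 46.0, 45.3 and 43.6 pericytes in rank 1 and 72.1, 43.0, 45, 38.0 and 45.6 in rank 4. Apart from rank 4 replicate 1 the ratio stayed between 38.0 and 54.8. On the log2 scale the means were −1.06 ± 0.14 and −1.07 ± 0.35 (SD, n = 5 per rank), a difference of 0.0178 (two-sided exact permutation test, p = 0.905, adjusted p = 0.905, positive in 3 of 5 pairs). Without the fibroblast-type barcodes it was 0.0465 (exact permutation p = 0.833). Without rank 4 replicate 1, the library that lay alone, it was 0.168 (exact permutation p = 0.103). The sign changed when 1 library was left out, for 5 libraries: omitting replicate 1 or 2 of rank 1 gave −0.00880 and −0.0289, and omitting replicate 2, 3 or 4 of rank 4 gave −0.0178, −0.00179 and −0.0623. A dissociated tissue gives the cells that survived and were captured, so loss of cells cannot be told apart from fewer cells in the tissue.

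Gene by gene, 0 of 3321 genes tested passed between the ranks in pericytes (0.0% called, edgeR quasi-likelihood test with the gene-list version as covariate, Benjamini-Hochberg adjustment, smallest adjusted p = 0.995). An unadjusted p under 0.05 was reached by 100 genes (3.01%). DESeq2 called 0 genes and had 71 with an unadjusted p under 0.05. The edgeR fit blocked by replicate number called 0, with a smallest adjusted p of 0.186. It had 339 of 3321 genes with an unadjusted p under 0.05, more than the 100 of the main fit. The ranks did not overlap in 9 genes (0.271%). The difference of the rank effect between pericytes and endothelial cells was called for 0 of 5066 genes, with an unadjusted p under 0.05 in 151 (2.98%) in edgeR and in 73 in DESeq2.

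**Figure D5:**
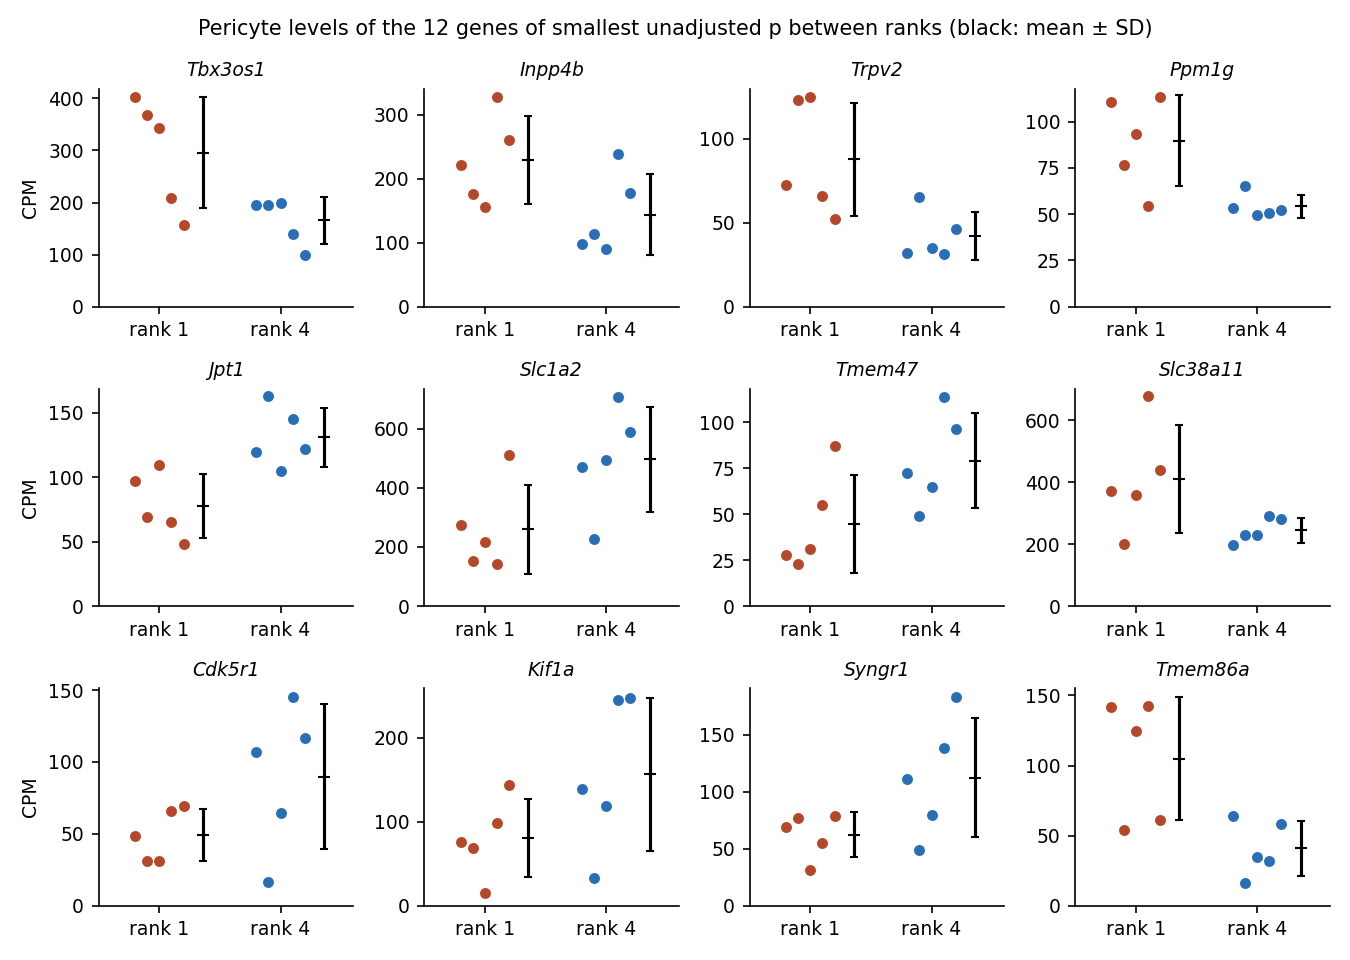
CPM in pericytes of the 12 genes of smallest unadjusted p between the ranks, 1 point per library, with the mean and SD of each rank in black. No gene passed after adjustment, and the ranks overlap in every panel.

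The 12 genes of smallest unadjusted p are given as values, and none passed (adjusted p = 0.995 for each with edgeR and Benjamini-Hochberg adjustment, 0.186 to 1.00 over the alternatives). Tbx3os1, an antisense RNA that overlaps the T-box gene Tbx3, was at 401.9, 368.8, 343.2, 207.8 and 156.7 CPM in rank 1 and 196.0, 195.6, 199.0, 138.7 and 98.9 in rank 4. All 5 pairs had the higher value in rank 1, although the ranks overlapped (log2 difference 0.78, SE 0.21). Inpp4b, a phosphoinositide phosphatase gene, was at 221.8, 176.7, 156.0, 328.2 and 261.2 CPM in rank 1 and 98.0, 114.1, 89.6, 239.5 and 177.4 in rank 4 (0.72, SE 0.22), again higher in 5 of 5 pairs. Slc38a11 was at 370.8, 199.8, 358.8, 678.2 and 439.8 CPM in rank 1 and 196.0, 228.2, 228.9, 289.9 and 282.2 in rank 4 (0.69, SE 0.24), and only rank 1 replicate 2 lay within the range of rank 4. The cation channel gene Trpv2 (1.01, SE 0.31), the phosphatase gene Ppm1g (0.81, SE 0.26) and Tmem86a (1.05, SE 0.36) had higher estimates in rank 1 as well.

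The other 6 had lower estimates in rank 1, and several are neuronal or glial genes. Slc1a2, the glutamate transporter of astrocytes, was at 273.7, 153.7, 218.4, 142.2 and 509.4 CPM in rank 1. In rank 4 it was at 468.8, 228.2, 492.5, 705.9 and 587.6 (log2 difference −0.94, SE 0.32). Every pair of equal number had the lower Slc1a2 value in rank 1, although the ranks overlapped. Kif1a, a kinesin of axonal transport, was at 76.2, 69.2, 15.6, 98.4 and 143.7 CPM against 138.5, 32.6, 119.4, 245.8 and 247.3 (−0.92, SE 0.32). Cdk5r1, an activator of the neuronal kinase CDK5 (−0.95, SE 0.33), the synaptic vesicle gene Syngr1 (−0.83, SE 0.29), Tmem47 (−0.86, SE 0.29) and Jpt1 (−0.78, SE 0.26) had the same sign. Beside these, all 10 neuronal markers had lower estimates in rank 1 (median −0.57, 0 called, against −0.01 over all genes tested), and their summed level was 1654 to 4234 CPM in rank 1 and 1223 to 6853 in rank 4. Of 8 astrocyte markers tested 7 had lower estimates (median −0.40, 0 called, summed level of the list of 10 3698 to 7599 CPM in rank 1 and 3538 to 7458 in rank 4), and all 5 fibroblast markers tested did (median −0.57, 0 called, 558 to 2052 and 1027 to 2401 CPM). These estimates include the fibroblast-type barcodes, which were 0 to 3.31% of the pericytes of a library in rank 1 and 1.47% to 7.14% in rank 4. The part of such transcripts in the rank estimates was not tested. Syngr1 overlaps Rpl3.

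All 20 pericyte markers outside the rule were tested and 0 were called, with 19 estimates above 0 and a median of 0.17, against −0.01 over all genes. Their 3 unadjusted p under 0.05 stand beside 100 of 3321 over all genes. The immediate early genes (0 of 16 called, median 0.33), glucocorticoid-responsive genes (0 of 8, median −0.25), heat shock chaperones (0 of 12, median −0.14) and vessel tone genes (0 of 9, median 0.29) gave 0 calls. So did the solute carriers (0 of 9, median 0.36), Notch genes (0 of 6, median 0.47) and basement membrane genes (0 of 16, median 0.21).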

How the data were processed

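Single-cell RNA sequencing covered 10 libraries of mouse medial prefrontal cortex. The authors deposited raw UMI counts per gene and barcode, with Cell Ranger 4.0.0 and build mm10 named per the submitters' processing notes. Per the file headers, replicates 1 to 3 were written by version 3.1.0 and replicates 4 and 5 by version 4.0.0, each with its own gene list, and the 30406 shared genes were used. Chemistry, strand and the annotation release are not given in the sources used here.

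UMIs were summed per library and cell type over cells set by marker rules, and libraries with at least 20 cells entered. edgeR 4.0.16 (filterByExpr, TMM, quasi-likelihood test, Benjamini-Hochberg adjustment over all genes tested, threshold 0.05) was the main test. Ranks were compared with the gene-list version as covariate, and cell types with the library as block. DESeq2 1.42.0 was an alternative, and the fits were tested on simulated data. Shares of cells were compared by exact permutation. Intervals (95%, exact) and floors (3 UMIs over the group) cover counting error only. No doublet caller was run; the rule allowed 1 or 2 UMIs of other cells' genes, so mixed barcodes may remain, and a setting with 0 such UMIs, which left 867 of 1539 pericytes, was an alternative. Positions come from GENCODE M21 and promoters from RefSeq.

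Same-numbered libraries of the 2 ranks deviated together (correlation 0.496 to 0.761 over 3321 genes, above 0.1 in 5 of 5 pairs). This was a hint of pairing from the data and not from the labels. The main rank tests did not use it. Pairing entered only the replicate block, run as an alternative, and the counts of pairs of equal number. Unlike numbers also correlated, replicates 2 with 3 at 0.615 and 0.571 and 4 with 5 at 0.482 and 0.715, and 6 of 10 libraries correlated best with their own number.

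The members, lists and tests were chosen with earlier results of these data known. Genes named were the 12 of smallest p between ranks, the 10 of largest fold in each direction against each cell type (at least 100 CPM, adjusted p under 0.05), and from each list the 4 members of highest level in pericytes or, for families, any member. Further list members, the genes of the replicate pattern and of the fibroblast-type barcodes were chosen after their values were seen. List members whose call changed under an alternative were not named with a fold. Some genes are not reported here.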

Additional observations from a re-analysis of the deposited data

Results flagged for a closer look

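Rank 4 replicate 1 stood apart from the other 4 libraries of its rank in 3 measures. It held 72.1 pericytes per 100 endothelial cells, with 45.6 in the next library. Its pericytes had a median of 2301.5 UMIs, with 959 in the next, and a median of 1315.5 genes, with 690 in the next. In rank 4 replicate 2, Ppm1g was at 65.2 CPM in pericytes, with 53.3 in the next library. For each, the gap to the nearest library over the range of the group was above the 95% critical value of Dixon's test for 5 samples (0.71). In all 50 groups were tested and 4 stood out, where chance gives about 1 in 20. The genes of the pericyte rule were not tested.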

How the results depend on the processing

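The count of genes called between the ranks stayed at 0 under every alternative run. The rank difference in pericyte share was 0.190 percentage points and ran from −0.410 to 0.524 when 1 library was left out. The log2 ratio to endothelial cells (0.0178) ran from −0.0623 to 0.168, and was −0.106 with 0 UMIs of the exclusion genes and −0.0320 within replicates 1 to 3. With the replicate block, the share difference of 0.190 had an exact paired p of 0.75 and the ratio difference of 0.0178 a p of 0.938 (smallest possible 0.0625), and the block changed no call. Between cell types, leaving out 1 library gave 2385 to 2723 genes called against endothelial cells and 607 to 1057 against smooth muscle cells. With no filter on low counts the numbers were 4128 and 1430, more genes being tested, and in rank 4 alone 592 were called against smooth muscle cells. With 0 UMIs of the exclusion genes, which left 867 pericytes, 1950 and 766 were called. The difference of the rank effect gave 2 genes within replicates 4 and 5 and 2 with no filter. Of 94 genes named with a fold against endothelial and 58 against smooth muscle cells, all kept their direction and side of the threshold in the alternatives run, but genes that did not were left out of the naming. Not run, for want of cells, were at least 1000 genes per barcode for the gene tests between ranks, the interaction and smooth muscle cells, and smooth muscle cells within replicates 4 and 5. At that minimum the share difference was 0.0427, and the ratio was not tested because rank 4 replicate 2 kept 0 pericytes. Depth limits the genes of few UMIs, whose folds carry wide counting intervals. For some named genes the size of the fold also differed between the replicate sets. Within replicates 1 to 3 and within 4 and 5, the log2 fold of Slc19a1 against endothelial cells was 8.49 and 6.11. That of Bgn was 7.54 and 4.97, and that of Cxcl12 −1.63 and −3.36.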
